A study of Mus musculus with 8 samples.

Results

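The comparison described here is between p42- and p30-expressing HPC-7 cells after lipopolysaccharide (LPS), and it rests on 2 of the 4 deposited lists of H3K27ac HiChIP loops and on 4 of the 8 libraries, chosen by their labels alone. HPC-7 is a mouse haematopoietic progenitor line. The p42 LPS group carried p42, the full-length isoform of the transcription factor CEBPA, and the p30 LPS group carried p30, the shorter isoform that lacks the N-terminal transactivation domains of p42 and is made by leukaemia-associated CEBPA mutations. Both groups were exposed to 100 ng/mL of LPS for 2 h, and each has 2 libraries. The untreated groups, p42 UT and p30 UT, carried the same isoforms without LPS, had 2 libraries each and are used only for reference. Per the study's methods, the isoforms were expressed from retroviral vectors in sorted, transduced cells that hold very little endogenous CEBPA, fused to ERT2 or, in other experiments, unfused; the labels do not say which form the HiChIP cells carried.

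HiChIP ligates DNA ends that are near each other in space and pulls down those products that carry H3K27ac, the histone acetylation found at promoters and enhancers in use. CEBPA is a basic leucine zipper factor that binds enhancers of myeloid genes and drives granulocyte and monocyte differentiation. LPS, a component of the outer membrane of Gram-negative bacteria, is sensed through TLR4 and activates NF-kB and AP-1 factors, which switch on cytokine, chemokine and feedback genes. A contact between a promoter and a distant H3K27ac-marked bin is a candidate regulatory contact, and it does not by itself measure transcription.

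Both libraries of a group were pooled into 1 list, so no spread between replicates was measured, no p-value was computed, and every difference is one between these pooled libraries. Intervals cover counting error only. Loops are pairs of bins, each 5 kb long, whose contacts exceeded the expectation of the loop caller (q-value under 0.01). The p42 LPS list held 78591 loops from 15831583 modelled contacts, and the p30 LPS list held 94609 loops from 14503330, a ratio of loops of 0.831. Loops took 13.6% of the modelled contacts in p42 LPS (95% Wilson interval 13.55 to 13.59%) and 18.2% in p30 LPS (18.13 to 18.17%). The mean coverage of H3K27ac peak bins was 4.12 times that of the other bins in p42 LPS and 5.70 times in p30 LPS, so the p30 LPS libraries stood further above their background. What part this gap had in the loop counts was not tested. Unless stated otherwise, both lists were therefore set to equal length by ranking loops on the q-value and taking the first 78591, which kept p30 LPS loops up to a q-value of 0.00379. All 11 progenitor markers had a promoter loop in both lists, with 93 loops in p42 LPS and 79 in p30 LPS, of which Erg had 19 and 5. In each list, 1 of 9 lymphocyte, 1 of 4 mast cell, 2 of 6 erythroid and 2 of 5 megakaryocyte markers had one. Of 7 granulocyte markers, 6 had a loop in p42 LPS and 5 in p30 LPS, with 58 and 40 loops in all. Of these loops, Cebpe had 15 and 1. The part of these genes in the results below was not tested.

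Some of the promoters that the gene results turn on are shown here. Each line gives the 250 bases before the start site of the gene, 5′ to 3′ on its own strand, from build GRCm39, which is mm39. Il6 lies at chr5:30217862-30218111 (plus strand), Cxcl2 at chr5:91051480-91051729 (plus strand), Cebpe at chr14:54949632-54949881 (minus strand) and H2-Ob at chr17:34457586-34457835 (plus strand). Capitals mark matches, searched on both strands, to letters of 5 factor families: TTGCNNAA for CEBP, TGATGCAA for CEBP-ATF pairs, TGANTCA for AP-1, GGGA, any base and TTTCC for NF-kB and CCGGAAG for ETS.
Il6: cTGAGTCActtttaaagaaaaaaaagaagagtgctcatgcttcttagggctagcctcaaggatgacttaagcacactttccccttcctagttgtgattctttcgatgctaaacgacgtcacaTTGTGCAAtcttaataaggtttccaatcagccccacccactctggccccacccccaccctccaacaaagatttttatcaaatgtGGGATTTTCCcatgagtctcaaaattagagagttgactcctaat
Cxcl2: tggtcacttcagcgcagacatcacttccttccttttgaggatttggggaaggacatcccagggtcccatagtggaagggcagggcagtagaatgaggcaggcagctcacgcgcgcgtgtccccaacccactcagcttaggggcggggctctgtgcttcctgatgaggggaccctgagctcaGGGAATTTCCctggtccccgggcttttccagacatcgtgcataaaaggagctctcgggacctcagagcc
Cebpe: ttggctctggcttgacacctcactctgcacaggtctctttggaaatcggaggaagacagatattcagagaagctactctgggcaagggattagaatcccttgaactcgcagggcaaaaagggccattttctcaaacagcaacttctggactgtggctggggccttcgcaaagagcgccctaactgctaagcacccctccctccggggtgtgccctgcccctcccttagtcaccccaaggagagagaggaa
H2-Ob: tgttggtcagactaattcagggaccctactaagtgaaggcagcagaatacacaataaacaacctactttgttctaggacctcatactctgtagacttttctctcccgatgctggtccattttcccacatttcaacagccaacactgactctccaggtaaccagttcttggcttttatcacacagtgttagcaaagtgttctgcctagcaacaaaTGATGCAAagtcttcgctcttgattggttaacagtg

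Il6 and Cxcl2 are shown as cytokine promoters with more loops in p42 LPS, Cebpe as the granulocyte gene with 1 of the largest differences toward p42 LPS, and H2-Ob as an MHC class II gene with more loops in p30 LPS. The Il6 window held 1 CEBP, 1 AP-1 and 1 NF-kB match, the Cxcl2 window 1 NF-kB match, the H2-Ob window 1 CEBP-ATF match and the Cebpe window none. The windows of Nfil3, Jak3 and Ppp1r15a were read in the same way, are not shown and held no match. Among the windows of all 21738 protein-coding genes, 9.35% held the CEBP letters, 6.18% the AP-1 letters, 6.90% the ETS letters, 0.888% the CEBP-ATF letters and 0.423% the NF-kB letters. A match is a string of letters and not a bound site, and no match says only that these letters are not in this window.

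The first question was how far both lists named the same loops. In the lists of equal length, 42287 loops were shared, which is 53.8% of each list and 36.8% of the union of 114895 (95% Wilson interval 36.5 to 37.1%). Each list then held 36304 loops of its own. Most of these had a near neighbour in the other list. Of the loops in p42 LPS alone, 68.3% lay within 1 bin at both ends of a loop in the deposited p30 LPS list, and 10.5% were in that list itself below the q-value limit. Of the loops in p30 LPS alone, 65.1% lay within 1 bin of a p42 LPS loop. Loops further than 1 bin from any loop of the other deposited list numbered 11514 in p42 LPS and 12666 in p30 LPS. These counts and percentages are not like for like, because the deposited p30 LPS list held 94609 loops and the p42 LPS list 78591. In a cell population, more cells with a contact and more contact per cell cannot be told apart.

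Loops in p42 LPS alone were the longer and less promoter-centred class. Their median length was 45 kb (quartiles 20 and 95 kb), compared with 35 kb in p30 LPS alone (15 and 85 kb) and 35 kb among shared loops (15 and 75 kb). Loops over 100 kb made up 22.7% of p42 LPS alone, 19.3% of p30 LPS alone and 15.2% of shared loops. Both bins held a start site in 3.34% of loops in p42 LPS alone (Wilson interval 3.16 to 3.53%), in 5.00% of those in p30 LPS alone (4.78 to 5.23%) and in 5.84% of shared loops (5.62 to 6.07%). Neither bin held one in 72.5%, 66.4% and 63.6%, respectively.

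At shared loops the contacts were nearly even between both lists. The median log2 ratio of contacts, p42 LPS over p30 LPS, was -0.05, with an SD across loops of 0.40, whereas the log2 ratio of modelled contacts was 0.13. The median log2 ratio of contacts over expected was -0.12 (SD 0.35). A shared loop was called when its contact share, relative to the share of modelled contacts, differed by 1.5-fold or more and its exact Clopper-Pearson interval excluded that share. This held for 475 loops in the direction of p42 LPS (1.12%) and 2762 in that of p30 LPS (6.53%). The split depended on the centre of the ratio, with 1068 and 1187 calls around the median of the shared loops, a centre chosen after seeing the data, and 162 (0.383%) and 1107 (2.62%) against the share of expected contacts. The intervals are not adjusted for the number of loops, so that the number of calls that counting error gives was not tested. Across shared loops, the ratio of contacts followed the ratio of the coverage of both bins, with a Pearson r of 0.54 over 42287 loops, whereas r was 0.18 for the ratio of contacts over expected. Loops share bins and libraries and are not independent, so that this is a description.

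The shared loops with the largest ratios and a start site in a bin were as follows. The Nfil3 promoter, whose gene encodes a basic leucine zipper transcription factor, contacted a bin 270 kb downstream, between genes and nearest to Syk, with 41 contacts in p42 LPS and 11 in p30 LPS. The share of p42 LPS was 78.8% (exact interval 65.3 to 88.9%), and contacts were 32.4 and 10.1 times the expected number. Vsir, which encodes the checkpoint receptor VISTA, had 65 and 19 contacts with an exon of Cdh23 45 kb away and 45 and 13 with a bin 50 kb away. Exosc4, a subunit of the RNA exosome, had 53 and 16 contacts with an intron of Spatc1, and Dock8, a guanine nucleotide exchange factor of leukocytes, had 56 and 17 with a bin 35 kb away. In the other direction, the promoters of the apoptosis inhibitor Xiap and the cohesin gene Stag2 contacted each other 11 times in p42 LPS and 42 times in p30 LPS, a p42 LPS share of 20.8% (exact interval 10.8 to 34.1%). Srebf2, a regulator of sterol synthesis, and an exon of Cenpm had 11 and 40 contacts, and the DNA methyltransferase gene Dnmt3b had 13 and 44 with a bin 40 kb away. Klf10, a TGF-beta-induced zinc finger gene, had 19 and 64 contacts with a bin 170 kb away, and Tspan32 had 19 and 60 with an exon of Cd81. At both Nfil3 and Klf10 the number of contacts over expected differed in the same direction, 13.5 in p42 LPS and 41.2 in p30 LPS for Klf10.

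Gene by gene, promoter loops are the loops with a bin that holds the start site of the canonical transcript. Of 21738 protein-coding genes, 8822 had at least 1 promoter loop in either list, 7628 in p42 LPS and 7867 in p30 LPS. More promoter loops were found in p42 LPS for 2974 genes (33.7%), more in p30 LPS for 4122 (46.7%) and equal numbers for 1726 (19.6%). A gene was called when its loops plus 1 differed by 2-fold or more and by at least 3 loops. Calls toward p42 LPS numbered 349 (3.96%) in 313 distinct bins, and calls toward p30 LPS numbered 525 (5.95%) in 464 bins. The lists as deposited gave 220 and 977 calls, because the p30 LPS list is longer. Merging adjacent partner bins into 1 region gave 204 and 298 calls, and 150 and 210 of the main calls were among them. With both neighbouring bins of the start-site bin included, 602 and 668 genes were called, among them 239 and 284 of the main calls.

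The genes with the largest differences toward p42 LPS included regulators of myeloid and progenitor cells. Cebpe, the CEBP family member required for terminal granulocyte differentiation (chr14:54947817-54949631), had 15 promoter loops in p42 LPS and 1 in p30 LPS. Erg, an ETS factor of haematopoietic stem cells (chr16:95160028-95387452), had 19 and 5. Hlx, a homeobox gene of haematopoietic progenitors (chr1:184458496-184465842), had 12 and 2. These 3 genes also had higher coverage of the start-site bin in p42 LPS, with 6268 and 3022 reads at Cebpe, 6905 and 4910 at Erg and 4103 and 2845 at Hlx. Msrb1, a methionine sulfoxide reductase, had 11 promoter loops in p42 LPS and none in p30 LPS, where the deposited list held 1. Sp3, a zinc finger factor that binds GC boxes, had 18 and 7, and Rab27a, a small GTPase of granule exocytosis, had 17 and 7. Vapa, a tether of the endoplasmic reticulum, had 20 and 6, Myl12a and Gm49909, which share a start-site bin, 19 and 8, and D16Ertd472e 19 and 8.

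For some of these genes the coverage of the promoter did not move with its loops. Coverage was 4144 reads in p42 LPS and 4888 in p30 LPS at Vapa, 4079 and 4141 at Sp3, and 7649 and 9821 at Myl12a. On the log2 scale, centred on the median of all peak bins, these differences were -0.03, 0.19 and -0.15. Many of the additional loops ended in adjacent bins. With adjacent partner bins merged into 1 region, the difference toward p42 LPS went from 14 to 2 at Erg and from 14 to 0 at Vapa, and from 11 to 2 at Myl12a, Gm49909 and D16Ertd472e. At Rab27a it turned from 10 to -1. Merged differences of 8, 6, 5 and 4 were left at Msrb1, Hlx, Cebpe and Sp3.

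The genes with the largest differences toward p30 LPS were of mixed function. Gmfg, an actin regulator of haematopoietic cells, had 9 promoter loops in p42 LPS and 24 in p30 LPS. Jak3, the kinase of the common gamma chain of cytokine receptors (chr8:72123007-72143225), had 1 and 12. Dennd1c, an exchange factor for Rab GTPases, had 8 and 22, Zmynd8, a reader of acetylated histones, 11 and 23, and Ppp2r5c, a regulatory subunit of protein phosphatase 2A, 6 and 18. Ppp1r15a, the stress-induced phosphatase subunit also known as GADD34, and Plekha4 share a start-site bin, which had 6 and 17. Hgfac had 9 and 21, Aldh16a1 8 and 18, and Ccdc107 5 and 15. Coverage of the start-site bin was higher in p30 LPS at each of these genes. With adjacent partner bins merged, the differences at these genes lay between -8 at Jak3 and -2 at Aldh16a1, with -5 at Gmfg. Coverage was 6213 and 11231 reads at Gmfg, 4865 and 12113 at Jak3, 7359 and 14566 at Dennd1c, and 8612 and 16573 at Zmynd8.

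**Figure D1:**
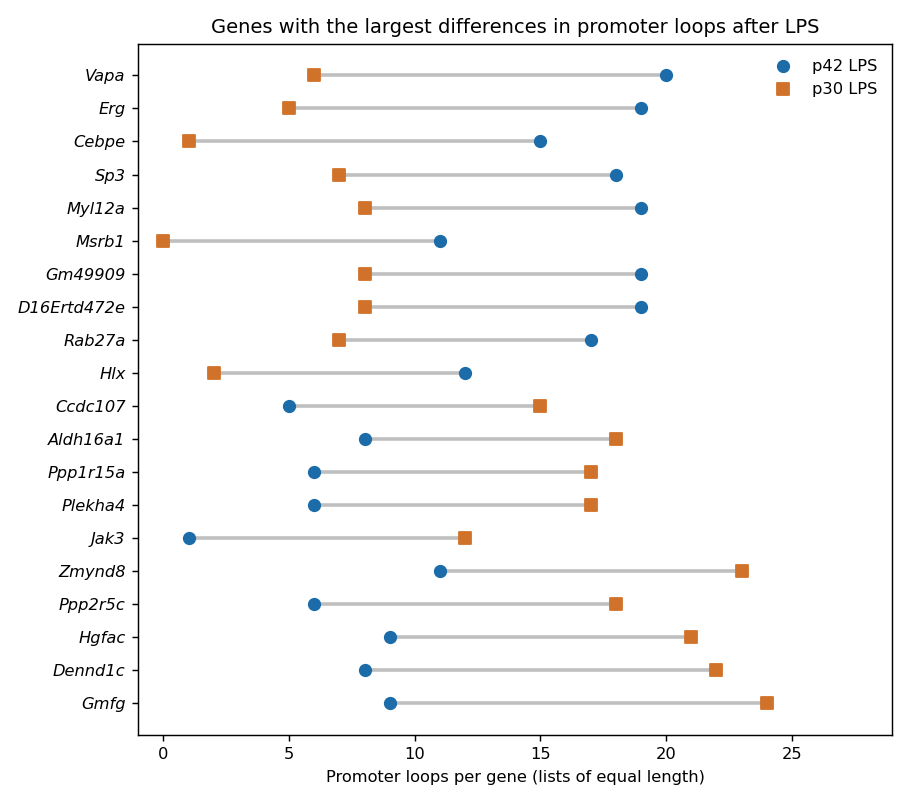
Promoter loops per gene (x axis, number of loops) in p42 LPS (blue circles) and p30 LPS (orange squares) for the 10 genes per direction with the largest called differences, in lists of 78591 loops each, with ties in the difference ordered by summed contacts. Cebpe goes from 15 to 1 and Msrb1 from 11 to 0, whereas Gmfg goes from 9 to 24 and Jak3 from 1 to 12.

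The partner regions that set these genes apart fell into clusters. The 14 partners of Cebpe in p42 LPS alone lay from 45 kb downstream to 150 kb upstream, 12 of them upstream, with 246 contacts in all. They covered Acin1, Slc7a8, Rnf212b and Homez and a lncRNA gene between them, and 3 of the bins held a start site. The only shared partner, 80 kb upstream, had 23 contacts in p42 LPS and 10 in p30 LPS, 10.1 and 6.06 times the expected number. All 14 partners of Erg in p42 LPS alone lay downstream of its start site, 25 to 120 kb away, and 10 of them were in introns. At Hlx, 10 partners in p42 LPS alone lay 70 to 285 kb downstream, and the bins 250 and 195 kb downstream, in lncRNA genes, had 25 and 26 contacts in p42 LPS and were not listed in p30 LPS. Those bins had a centred log2 coverage of 1.61 and 1.63. Jak3 had 12 partners in p30 LPS alone, from 210 kb upstream to 50 kb downstream, and 9 of these held a start site, among them those of Bst2, B3gnt3 and Fcho1. Its single p42 LPS partner, 10 kb downstream within Jak3, had 62 contacts. Gmfg had 8 shared partners with 237 and 297 contacts, and 16 partners in p30 LPS alone.

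Nfil3 differed in both coverage and loops. It had 11 promoter loops in p42 LPS and 1 in p30 LPS, and its start-site bin had the largest coverage ratio of any promoter, with 3159 and 783 reads, a centred log2 difference of 2.22. One cluster of its partners in p42 LPS alone lay 140 to 165 kb downstream, in and next to Auh, and the other 265 to 325 kb downstream, nearest to Syk. The bin 160 kb downstream, chr13:52975001-52980000, had 16 loops in p42 LPS and 2 in p30 LPS, and 7244 and 2905 reads. It held 7 matches to the CEBP letters, compared with a mean of 2.02 per bin among 30434 peak bins without a start site, of which 0.877% held 7 or more. The other bins read in this way, in introns of Runx1 and Spatc1 and upstream of Il6, held 1, 2 and 1 matches. These bins were chosen after their loop counts were seen. The matches of the Nfil3 partner bin are shown with 11 bases on each side, plus strand, build GRCm39, letters of the match in capitals.
Match at chr13:52976400-52976429: gaaggagaaacTTGTGCAAaatggccttga
Match at chr13:52976433-52976462: tgtgggctgtgTTGCGTAAcaggctcctga
Match at chr13:52976750-52976779: agcaaaatgttTTGCTGAAgtacttcctgg
Match at chr13:52976912-52976941: gtttaatgcagTTGAGCAAccacgctggcg
Match at chr13:52976975-52977004: agaaagaatgcTTGCGAAAtaccaaagaca
Match at chr13:52977649-52977678: cacagggaactTTGCCCAAagtctggtgag
Match at chr13:52979237-52979266: tgtattttgaaTTGCCCAAttaggttttat

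Cytokine and chemokine genes, which code for the secreted signals of inflammation, had more promoter loops in p42 LPS. Of 33 genes in the list, 22 had a promoter loop, of which 14 had more in p42 LPS, 5 more in p30 LPS and 3 equal numbers. Their mean difference was 1.55 loops, with a median of 1, compared with a mean of -0.39 and a median of 0 over all genes with a promoter loop. Over all genes, 33.7% had more in p42 LPS and 46.7% more in p30 LPS. Il6, Cxcl2 and Cxcl3 were called toward p42 LPS, where 3.96% of all genes were. With adjacent partner bins merged, 2 members were called toward p42 LPS, compared with 204 of 8822 genes. The list mean was then 0.64, compared with -0.18 for all genes, and the difference at Cxcl3 went from 3 to 1. With the lists as deposited the numbers were 10 genes with more in p42 LPS, 6 with more in p30 LPS and 6 equal, with a mean of 0.50. The lists of genes were written with earlier results of these data known, and these counts are a description of these libraries.

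Il6, which encodes the acute-phase cytokine interleukin 6 (chr5:30218112-30224979), had 12 promoter loops in p42 LPS and 4 in p30 LPS. All partners lay upstream, from the start site of Dnajb6 to the lncRNA gene Gm42450. The bins 60 and 65 kb upstream had 16 and 15 contacts in p42 LPS, 5.73 and 5.13 times the expected number. In the deposited p30 LPS list, the first was missing and the second had 10. Coverage of these bins was higher in p42 LPS by 1.05 and 1.04 on the centred log2 scale. The deposited p30 LPS list held 9 loops of Il6, so that part of the gap came from loops of higher q-values. In the untreated lists, cut to the same length, Il6 had 2 loops each, whereas Cxcl3 had 7 in p42 UT and 2 in p30 UT. Of the cytokine and chemokine list, 12 genes had more loops in p42 UT and 3 more in p30 UT, with a mean difference of 1.81, compared with 0.24 for all genes, so that the list differed in the same direction without LPS.

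Cxcl2 and Cxcl3 encode neutrophil-attracting chemokines and lie in 1 cluster on chromosome 5, together with the platelet chemokine gene Pf4. Cxcl2 (chr5:91051730-91053797) had 5 promoter loops in p42 LPS and none in p30 LPS, Cxcl3 (chr5:90933962-90937459) 4 and 1, and Pf4 5 and 0. Each of these promoters contacted the bins chr5:90805001-90810000 and chr5:90810001-90815000, in an intron of a lncRNA gene, and a bin 30 kb nearer to the promoters, closest to the start site of Rassf6. The first bin had a centred log2 coverage of 0.81. Cxcl2 contacted it 10 times, Pf4 10 times and Cxcl3 18 times in p42 LPS, and only the Cxcl3 loop was listed in p30 LPS, with 15 contacts. Cxcl10, the interferon-induced chemokine, had 2 loops in p42 LPS and 1 in p30 LPS, Ccl4 12 and 7, Ccl9 23 and 19, and Csf3, the granulocyte colony-stimulating factor, 14 and 10. Tnf had 12 and 14, so the list did not move as 1 block. Ccl4, Ccl9, Csf3 and Tnf were named after their values were seen.

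Of 29 NF-kB factors and feedback genes with a promoter loop, 8 had more in p42 LPS, 14 more in p30 LPS and 7 equal numbers, with a mean difference of -0.31, compared with -0.39 for all genes. In the lists as deposited, 5 had more in p42 LPS and 19 more in p30 LPS, with a mean of -1.72, compared with -1.07 for all genes, and 1 was called toward p42 LPS and 2 toward p30 LPS, compared with 220 and 977 of all 9138 genes. Nfkbia, the inhibitor of NF-kB that the pathway induces, had 20 and 19 promoter loops. Socs1, a suppressor of cytokine signalling, had 5 and 2, and Sod2, the mitochondrial superoxide dismutase, 5 and 0. Rela and Nfkb2, which encode subunits of NF-kB, had 9 and 15 and 11 and 17, values that did not meet the threshold and were picked after they were seen. Of 27 genes of this list with a start-site peak bin, the median centred log2 coverage was -0.22, compared with -0.12 over all 6785 genes with such a bin. Birc3, an NF-kB target that inhibits apoptosis, had 3278 reads in p42 LPS and 7111 in p30 LPS at its start-site bin, with 1 and 2 loops.

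Genes of LPS sensing were evenly split in the lists of equal length, with 8 of 21 on each side, compared with 33.7% and 46.7% of all genes. The split was 7 toward p42 LPS and 13 toward p30 LPS in the lists as deposited. For loops of 20 kb or more it was 12 and 5. Tlr2, a receptor for bacterial lipoproteins, had 6 promoter loops in p42 LPS and 2 in p30 LPS, and Tab2, an adaptor of the TAK1 kinase, had 3 and 7. Of 14 AP-1 factors, 7 had more loops in p42 LPS and 6 more in p30 LPS. Toward p42 LPS 2 were called and toward p30 LPS 1, compared with 3.96% and 5.95% of all genes. In the lists as deposited 1 and 3 were called, compared with 220 and 977 of 9138 genes. With both neighbouring bins of the start-site bin included 3 and 0 were called, compared with 602 and 668 of 10381 genes. With adjacent partner bins merged 0 and 1 were called, compared with 204 and 298 of 8822. Fos, a subunit of AP-1, had 14 and 11, Fosl2 5 and 2 and Atf3 4 and 1, whereas Fosb had 3 and 7. The Fos difference of 3 went to 15 with both neighbouring bins included and to 0 with adjacent partner bins merged. Of 17 interferon-stimulated genes with a promoter loop, 6 had more in p42 LPS and 4 more in p30 LPS, and Isg20, an antiviral exonuclease, was the 1 called gene, with 0 and 4, a share near the 5.95% of all genes called toward p30 LPS.

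Myeloid genes leaned toward p42 LPS. Of 23 granulocyte and monocyte genes with a promoter loop, 16 had more in p42 LPS and 7 more in p30 LPS, a mean difference of 1.91, compared with 33.7% and 46.7% of all genes and their mean of -0.39. Toward p42 LPS 5 were called and toward p30 LPS 1, compared with 3.96% and 5.95% of all genes. The split was 12 and 8 with a mean of 0.65 in the lists as deposited, and the mean was 1.13 with adjacent partner bins merged. In the untreated lists 17 had more in p42 UT and 2 more in p30 UT, with a mean of 2.82, and Cebpe had 19 and 5 loops. Besides Cebpe, the called members included Itgam, the integrin chain CD11b, with 9 and 2 loops, and Clec5a and Ms4a3, with 4 and 0 and 3 and 0, which were named after their values were seen. Ngp, a neutrophil granule protein, had 2 and 5. Of the 6 CEBP family genes, 5 had more loops in p42 LPS, but Cebpe made up most of the mean difference of 2.67, which was 5.0 in UT. Cebpb had 21 and 17, Cebpa 5 and 4, Cebpd 7 and 6 and Ddit3, which encodes CHOP, 6 and 12. With adjacent partner bins merged, the mean difference of the family was 0.17, and 2 members had more loops in p42 LPS and 3 more in p30 LPS. In the lists as deposited, Cebpb, Cebpa and Cebpd each had equal numbers in both groups. Cebpb, Cebpa, Cebpd and Ddit3 were named after their values were seen.

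Of 19 stem and progenitor genes, 9 had more loops in p42 LPS and 6 more in p30 LPS, with a mean difference of 1.42 and a median of 0. In the lists as deposited the split was 8 and 8, with a mean of 0.58 and 2 called genes on each side, compared with 220 and 977 of all 9138 genes with a promoter loop there. With adjacent partner bins merged the mean was 0.42 and no gene was called. Erg, Ikzf1, which encodes the zinc finger factor Ikaros, with 5 and 2 loops, and Myc, the growth-promoting factor, with 3 and 0, were called toward p42 LPS, where 3.96% of all genes were. The 3 Myc partners lay 1620 to 1670 kb downstream of its start site and had 7 to 10 contacts each. Cd34, a surface marker of progenitors, had 4 and 10 loops and was called toward p30 LPS. Of the 16 erythroid and megakaryocyte genes with a promoter loop, 7 had more in each list, and Tfrc, the transferrin receptor, had 8 and 3, whereas Gp9 had 1 and 4. Of 20 lymphocyte genes 3 had any promoter loop, and of 12 mast cell, basophil and eosinophil genes 4 had one, with no called gene in either list. The part of these cell type genes in the differences above was not tested.

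MHC class II and ribosomal protein genes had lower mean differences than all genes after LPS. Of all genes with a promoter loop, 46.7% had more in p30 LPS and 33.7% more in p42 LPS, and 5.95% and 3.96% were called. Of 9 MHC class II genes with a promoter loop, 5 had more in p30 LPS, 1 more in p42 LPS and 3 equal numbers, a mean difference of -2.44. H2-Ob, a chain of the class II modulator H2-O, had 7 loops in p42 LPS and 17 in p30 LPS and 2466 and 4675 reads. H2-Aa, an antigen-presenting chain, had 2 and 5, and H2-DMb1, a peptide exchange factor, 2 and 5. These 3 genes were the called members. With both neighbouring bins of the start-site bin included, none was called toward p30 LPS and 1 gene was called toward p42 LPS. Of all 10381 genes with a promoter loop in that setting, 668 and 602 were called in these directions. All 7 MHC class II genes with a start-site peak bin had a centred coverage below 0, with a median log2 of -0.42, as did 4673 of 6785 genes in all, with a median of -0.12. After a linear fit of the ratio on GC content, added after seeing the data, 5 of the 7 were below 0, with a median of -0.44. These genes are neighbours on chromosome 17, and some of their loops join 2 of them, so that their counts are not independent. Of 55 ribosomal protein genes, 32 had more loops in p30 LPS and 14 more in p42 LPS, a mean difference of -1.18, with 8 genes called toward p30 LPS and 2 toward p42 LPS, the latter a share near that of all genes. With both neighbouring bins of the start-site bin included, 4 of 60 were called toward p30 LPS, a share near the 668 of 10381 genes in all. Rpl19 had 4 and 9 and Rpl29 2 and 7, whereas Rpl37 had 4 and 0 and Rps2 6 and 2. Their median centred log2 coverage was -0.15, close to the -0.12 of all genes. In the untreated lists, 28 ribosomal protein genes had more loops in p42 UT and 19 more in p30 UT, a mean of 0.625. Of the MHC class II genes, 4 had more in p42 UT and 2 more in p30 UT, a mean of -0.75. The mean over all genes was 0.24 in UT.

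Of 19 integrated stress response genes with a promoter loop, 8 had more in each list. Their coverage was higher in p42 LPS at 10 of 15 start-site peak bins, with a median centred log2 ratio of 0.29, compared with -0.12 and 2112 of 6785 for all genes. Ppp1r15a and Slc3a2, the latter with 0 and 3 loops, were called toward p30 LPS and Atf3 toward p42 LPS, compared with 5.95% and 3.96% of all genes. The mean difference was -0.53 and turned to 2.43 with both neighbouring bins of the start-site bin included, compared with -0.39 and -0.41 for all genes. With these bins, 13 genes had more in p42 LPS and 8 more in p30 LPS. Then 3 and 0 were called, compared with 602 and 668 of all 10381 genes with a promoter loop. Of 21 cell cycle genes, 11 had more in p30 LPS and 5 more in p42 LPS, with a mean difference of -0.57 and no called gene.

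**Figure D2:**
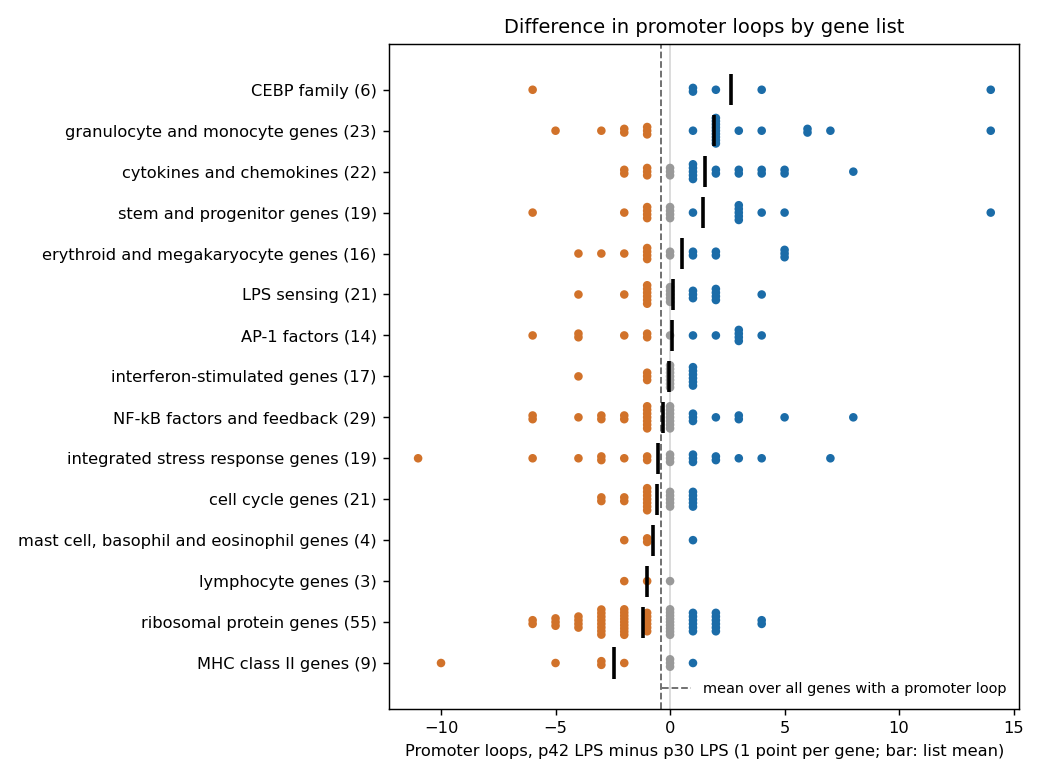
Difference in promoter loops, p42 LPS minus p30 LPS (x axis, loops), for each gene with a promoter loop (points) of 15 gene lists, with the number of genes in parentheses and the list mean as a black bar. The dashed line is the mean over all genes, -0.39; the means run from 2.67 for the CEBP family, in which Cebpe stands at 14, to -2.44 for MHC class II genes.

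Coverage, the number of HiChIP reads per bin, was compared over the 36445 peak bins that occur in both lists. The log2 ratio, p42 LPS over p30 LPS, had a median of -0.21, which was set to 0. After this centring, 1412 bins were at least 1.5-fold higher in p42 LPS (3.87%) and 1049 in p30 LPS (2.88%). Without centring the counts were 570 and 3219, and with the ratio of modelled contacts as the centre they were 332 and 6134, so that the directions given here are relative to the median peak bin. Start-site bins leaned toward p30 LPS. Of 6011 such bins, 105 were called toward p42 LPS (1.75%) and 228 toward p30 LPS (3.79%), whereas among the other peak bins 4.29% and 2.70% were called. The coverage ratio was lower in bins of higher GC content, with a Pearson r of -0.21 across bins, and its median went from 0.06 below 40% GC to -0.13 above 55%. The median GC content was 49.1% in start-site bins and 45.6% in other peak bins. After the linear fit on GC content, 1265 and 983 bins were called.

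After Nfil3, the largest coverage ratios of start-site bins toward p42 LPS were those of genes of mixed function. Spatc1, next to Exosc4 and Oplah, had 5864 reads in p42 LPS and 2066 in p30 LPS, and its intron bin had 8600 and 2534. F7 and F10, neighbouring genes for coagulation factors, had 7719 and 2863 and 5027 and 2348 reads. Plac8, a gene of myeloid cells, had 3772 and 1714 reads and 10 and 3 promoter loops, and Trem3, a myeloid receptor, 4181 and 2138 reads. Slc31a2, Ugt1a6b and Emb had centred log2 ratios of 1.31, 1.26 and 1.24. Toward p30 LPS, Jak3 had the largest ratio. Sema3b, a secreted semaphorin, followed with 5503 and 13461 reads, and Arid5a, an RNA-binding protein that stabilises Il6 mRNA, had 4817 and 10746 and 6 and 10 promoter loops. Ggt5, Rrad, Acss1, Sort1, Kcnn1 and Snx32 had centred log2 ratios from -1.02 to -0.89.

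Outside promoters, an intron of the kinase gene Hipk2 had 5345 and 1402 reads, an exon bin of Alas1, the first enzyme of haem synthesis, 4766 and 1496, and an intron of Nedd9 4241 and 1414. In the other direction, a bin between genes nearest to Mylip had 2317 and 8478 reads and 1 and 14 loops, among them loops with the promoters of Mylip and Dtnbp1 in p30 LPS alone. Other bins that gained many loops without a start site of their own were seen on both sides. An intron of Runx1, a factor of definitive haematopoiesis, at chr16:92510001-92515000 had 24 loops in p42 LPS and 2 in p30 LPS, with 7508 and 5208 reads, and a lncRNA bin on chromosome 2 had 24 and 11, with a loop to the Cebpb promoter in p42 LPS alone. In p30 LPS, 2 adjacent bins in an intron of Gse1 had 19 and 25 loops, compared with 4 and 10 in p42 LPS, and an exon of Ppfia4 had 15, compared with 1, with loops to Chi3l1 and Myog. An intron of Med12l had 15 loops in p30 LPS and 3 in p42 LPS, with loops to the purinergic receptor genes P2ry13 and P2ry14 in p30 LPS alone. These bins were picked after their values were seen.

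Loops and coverage were related but not the same. Of the 285 genes called toward p42 LPS with a start-site peak bin, 199 had a centred coverage above 0, with a median log2 of 0.17, compared with 2112 of 6785 genes in all. Of the 407 called toward p30 LPS, 369 were below 0, with a median of -0.30, compared with 4673 of all. Of these genes, 36 and 48, respectively, were also called by coverage in the same direction, compared with 107 and 248 of the 6785. Across 6785 genes, the difference in loops and the centred coverage ratio had a Pearson r of 0.45, and both come from the same libraries.

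The letters of 5 motif families were counted in bins without a start site. Bins called higher by coverage in p42 LPS (1307) held 0.511 CEBP matches per kb, compared with 0.387 in the 821 bins called higher in p30 LPS and 0.404 in all 30434 peak bins without a start site. CEBP-ATF matches were 0.0346, 0.0266 and 0.0243 per kb, respectively, and AP-1 matches 0.341, 0.329 and 0.313 per kb. NF-kB matches were 0.00826, 0.0166 and 0.00977 per kb. The GC content of these bins was 44.3%, 47.1% and 45.8%, and its part in the motif densities was not tested. In partner bins found in 1 list alone, CEBP matches were 0.440 per kb for 1145 bins of genes called toward p42 LPS and 0.364 per kb for 1510 bins of genes called toward p30 LPS. In the promoters of called genes the CEBP letters occurred in 8.60% of genes called toward p42 LPS and 7.24% of those called toward p30 LPS, compared with 7.69% of all genes with a promoter loop. The CEBP-ATF letters occurred in 0.860%, 1.14% and 0.533%, respectively, which is only 3 of 349, 6 of 525 and 47 of 8822 genes.

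The untreated lists, which share no library with the LPS lists, had coverage differences of the same direction at most called bins. The centred log2 ratios, p42 over p30, had a Pearson r of 0.55 between LPS and UT across peak bins. Of 1044 bins called toward p42 LPS that were measured in UT, 1006 were above 0 there (96.4%), and of 960 called toward p30 LPS, 809 were below 0 (84.3%), whereas 54.3% of all bins were above 0. At Nfil3 the untreated coverage was 4138 reads in p42 UT and 908 in p30 UT, and at Cebpe 12582 and 4543. At Jak3 it was 8074 and 8029, and at Arid5a 11032 and 7235, which placed them at -0.23 and 0.37 on the centred log2 scale. Promoter loops were less alike, with an r of 0.23 between LPS and UT over 8822 genes. Of the 349 genes called toward p42 LPS, 223 had more loops in p42 UT and 60 more in p30 UT. Of the 525 called toward p30 LPS, 219 had more in p30 UT and 199 more in p42 UT, compared with 2840 and 3448 of all 8822. Differences between treatments were not tested.

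**Figure D3:**
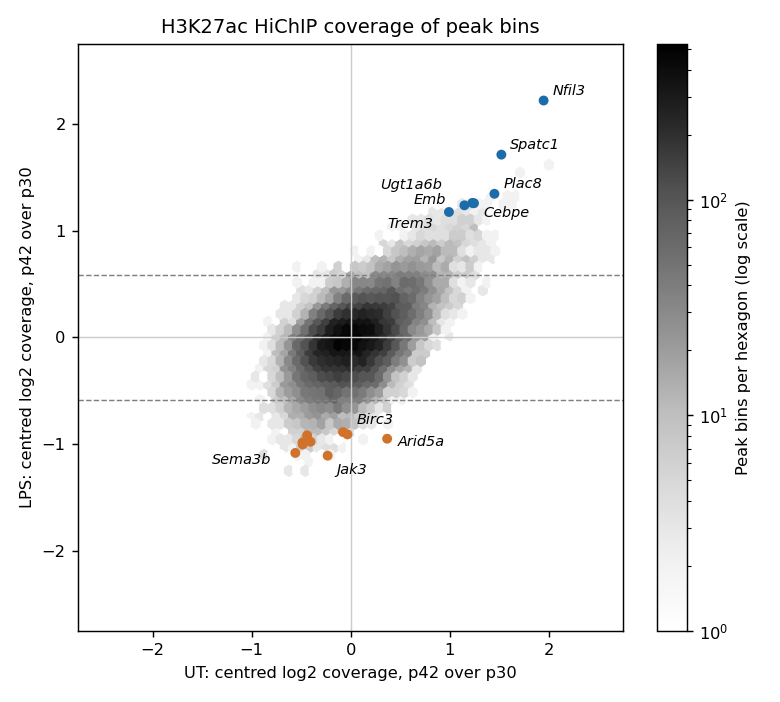
Centred log2 coverage ratio, p42 over p30, of H3K27ac peak bins after LPS (y axis) against the untreated lists (x axis), with the number of bins per hexagon in grey on a log scale and dashed lines at a 1.5-fold ratio. Labelled points are start-site bins with the largest ratios after LPS: Nfil3, at 2.22 and 1.95, is high in both, whereas Jak3, at -1.11 and -0.23, and Arid5a, at -0.95 and 0.37, lie below the 1.5-fold line after LPS and within it in UT.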

How the data were processed

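The authors prepared H3K27ac HiChIP libraries, 2 per group. Per the study's methods, reads were mapped to mm39 with BWA-MEM 0.7.17, ligation events were recorded and duplicates removed with pairtools, and loops were called with FitHiChIP. The deposited lists hold 5 kb bins and q-values under 0.01. How libraries were pooled is not stated. The deposited contact counts are whole numbers without normalization. The deposited coverage is reads per bin, the coverage bias a ratio to the mean of peak or other bins, and the contact probability a fraction of modelled contacts. The q-values were deposited by the authors' caller, as were flags for peaks, distances and expected contacts.

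Lists were compared in Python 3.11.15 with pandas 2.3.3, numpy 2.4.6 and scipy 1.17.1, and functions were tested on simulated data. Modelled contacts are the expected contacts divided by the probability. Genes are protein-coding genes of GENCODE M39. Named genes are the 10 per direction with the largest called difference in promoter loops (ties by summed contacts), up to 3 called members per list and direction, the 10 start-site bins per direction with the largest coverage ratio, the 5 shared loops per direction with the largest contact ratio, and Fos, Cxcl10, Il6, Cxcl2 and Nfkbia. Some genes that meet this rule are not reported here. Members, lists and rules were chosen with earlier results of these data known. A pair missing from a list has unknown contacts, and the caller's correction for coverage can remove part of a difference.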

Additional observations from a re-analysis of the deposited data

Results flagged for a closer look

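Opposite directions in LPS and UT were looked for in the ratio of loops, named genes called in both, and chromosome X coverage. In 4 of these results the difference between p42 and p30 was reversed. None of these contrasts between treatments was tested, because each group has 1 pooled list. The means of the gene lists were outside this check, and some also changed sign. For all genes the mean was -0.39 after LPS and 0.24 in UT, and for ribosomal protein genes -1.18 and 0.625. The ratio of loops, p42 to p30, was 0.831 after LPS and 1.97 without it. The coverage of peak bins over other bins differed the same way, at 4.12 for p42 and 5.70 for p30 after LPS but 6.38 for p42 and 3.95 for p30 without it, and loops took 25.2% of the modelled contacts in p42 UT and 12.7% in p30 UT. The part of this gap in the reversal was not tested. Socs1 had 3 more promoter loops in p42 after LPS, and its difference was -5 in UT. Ngp had a difference of -3 after LPS and 4 more loops in p42 in UT. The median centred log2 coverage of chromosome X peak bins was -0.17 after LPS, over 309 bins, and 0.18 in UT. The medians of the autosomes after LPS lay between -0.05 and 0.09, and those in UT are not given here. The loops of chromosome X went the other way after LPS, with 500 in p42 LPS and 406 in p30 LPS in lists of equal length. Of all genes, 34 were called in opposite directions in LPS and UT, compared with 97 called toward p42 in both and 44 toward p30 in both.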

How the results depend on the processing

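No paired analysis was possible because each deposited list pools both libraries of a group, and for the same reason no library could be left out. The ratio of loops was 0.809 at q under 0.001, 0.854 for loops of 20 kb or more and 0.90 with adjacent bin pairs merged. Shared loops were 36.3% of the union in the lists as deposited, 70.7% with 1 bin of shift and 34.4% from 20 kb on. The median log2 ratio of contacts at shared loops was 0.0 in the deposited lists and -0.063 with 40 contacts or more, and that of contacts over expected -0.089 and -0.13. Calls of shared loops toward p42 LPS and p30 LPS numbered 162 and 1107 against the share of expected counts, 160 and 807 at 2-fold, and 1068 and 1187 around the median of the shared loops, chosen after seeing the data. The deposited lists gave 220 gene calls toward p42 LPS and 977 toward p30 LPS. With both bins next to the promoter included there were 602 and 668. Merged partner bins gave 204 and 298, and a difference of 5 loops or more gave 111 and 177. Peak bins called by coverage toward p42 LPS and p30 LPS numbered 332 and 6134 centred on modelled contacts, 570 and 3219 without centring and 236 and 89 at 2-fold. With those neighbouring bins, the mean difference in promoter loops was 9.17 for the CEBP family, -4.0 for lymphocyte genes, 2.43 for integrated stress response genes and -5.67 for MHC class II genes. In the deposited lists it was -2.23 for ribosomal protein genes and -1.07 for all genes, and promoter pairs made up 4.72% of loops in p30 LPS alone. Merging partner bins gave Rab27a a difference of -1. Of 316 alternative values for 79 named genes, 284 lay within the counting interval of the main value, which is wide for few loops. Among the 316, 11 were 0 where the main value was not, and 6 had the opposite sign. Besides Rab27a, these were Exosc4 (4 to -3), Srebf2 (-4 to 1) and Tspan32 (-5 to 1) with merged bins, Nfkbia (1 to -3) in the deposited lists and Ggt5 (-2 to 2) with neighbouring bins. The causes were not tested. Lists without replicates limit every value here to these libraries, and low contact counts leave wide intervals at single loops.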
